A study of Mus musculus with 19 samples.

Results

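Lars2, Iars2, Vars2, Mars2, Rars2, Ears2, Aars2, Fars2 and Nars2 are 9 nuclear genes whose enzymes load amino acids onto the tRNAs of mitochondria. They were taken by gene symbol from a table of 55416 genes, and all 9 passed the low-count filter that left 19234 genes. The group was selected on the read counts of Lars2, which were far lower in knockout than in wild-type libraries, so genotype differences of these 9 genes are given as a description, with no test. Kainate responses were not used in that choice and were tested. The same libraries nevertheless serve both comparisons. The difference of the kainate responses equals the genotype difference after kainate minus that after saline. The kainate p-values of Lars2 are therefore not independent of its choice.

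The data are 19 RNA-seq libraries of mouse hippocampus, with C57BL6 as the labelled strain. EZH2nHom mice carry a homozygous deletion of floxed Ezh2, the H3K27 methyltransferase of Polycomb repressive complex PRC2, made by Cre under the Synapsin1 promoter, which is active in neurons. WT controls carry EZH2(+/+) and the same Cre. Mice received saline or repeated low doses of kainate, a glutamate receptor agonist that induces status epilepticus, and tissue was taken on day 4. The groups are EZH2nHom kainate (4 libraries), EZH2nHom saline (5), WT kainate (5) and WT saline (5). Other cell types of the hippocampus keep Ezh2 in this model, and the ages of the mice are not given in the sources used here.

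Mitochondria translate the few proteins of their own genome with a dedicated set of tRNAs, and each tRNA needs a synthetase that is made in the cytosol and imported. The leucyl, isoleucyl, valyl, methionyl, arginyl and glutamyl enzymes belong to class I, and the alanyl, phenylalanyl and asparaginyl enzymes to class II. Human mutations in these genes cause recessive disorders that often strike the brain, hearing or heart, among them Perrault syndrome for LARS2 and pontocerebellar hypoplasia for RARS2.

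The promoters of Lars2 and Mars2 are shown because these were the members whose levels changed after kainate. Each sequence is RefSeq's for GRCm38.p6, runs 5′ to 3′ on the gene's strand and spans 300 bases, of which the last 50 follow the annotated start. Capitals mark matches on either strand to GGGCGG (the SP1 motif), CCGGAAG (ETS) and the NRF1 (nuclear respiratory factor) motif, which in Mars2 is the run of capitals nearest the end. The Lars2 promoter lies at chr9:123366677-123366976 on the plus strand and the Mars2 promoter at chr1:55236927-55237226 on the plus strand.
Lars2: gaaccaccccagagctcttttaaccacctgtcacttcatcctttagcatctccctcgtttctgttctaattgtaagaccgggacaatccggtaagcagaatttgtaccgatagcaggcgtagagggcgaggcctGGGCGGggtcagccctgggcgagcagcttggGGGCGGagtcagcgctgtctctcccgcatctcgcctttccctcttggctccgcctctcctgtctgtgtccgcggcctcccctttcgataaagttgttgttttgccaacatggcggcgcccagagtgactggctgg
Mars2: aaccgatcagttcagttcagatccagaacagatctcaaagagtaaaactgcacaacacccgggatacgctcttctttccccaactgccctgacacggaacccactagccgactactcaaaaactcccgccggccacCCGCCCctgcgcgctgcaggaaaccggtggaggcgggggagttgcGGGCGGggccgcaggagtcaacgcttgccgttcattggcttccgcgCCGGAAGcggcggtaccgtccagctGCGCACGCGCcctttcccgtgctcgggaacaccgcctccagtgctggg
Lars2 had 2 SP1 matches and no ETS or NRF1 match in this window, while Mars2 had 2 SP1 matches, 1 ETS match and 1 NRF1 match, none of them overlapping. All 9 genes had a promoter entry. SP1 letters were in 8 of the 9 (all but Aars2) against 35.7% of 32851 mouse promoters of this length. ETS letters were in Mars2 and Rars2 against 8.86% of promoters, and NRF1 letters in Iars2 and Mars2 against 4.6%. These matches are letters only, and no binding was measured here.

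Total reads per library ran from 24496685 to 43948317. Levels are given in CPM, counts scaled to the library's TMM-adjusted total. The level of Ezh2 was 14.5 to 19.5 CPM in EZH2nHom kainate, 11.8 to 15.5 in EZH2nHom saline, 10.7 to 20.3 in WT kainate and 9.61 to 12.9 in WT saline libraries. A gene-level count over whole tissue separates neither the deleted exons nor the neurons, so it does not check the genotype labels, which are used as given. Markers of neurons, astrocytes, microglia and oligodendrocytes were read in every group, with none of them at 0. EZH2nHom kainate replicate 2 stood apart on the second principal component (13.9% of variance), at -108.5 against -19 to 27.5 in the other 18 libraries. Xist was read with Y-linked genes near 0 in 1 of 4 EZH2nHom kainate, 0 of 5 EZH2nHom saline, 2 of 5 WT kainate and 2 of 5 WT saline libraries. Sample codes in the labels, whose meaning is not stated, shared 0 prefixes between genotypes, so genotype and code prefix cannot be told apart. Within EZH2nHom 0 prefixes were shared between kainate and saline (2 within WT), so kainate and code prefix cannot be told apart in EZH2nHom either. In bulk tissue, fewer cells of a type and less RNA per cell cannot be told apart either.

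Lars2, the mitochondrial leucyl-tRNA synthetase (ENSMUSG00000035202, chromosome 9), was low in all EZH2nHom libraries and after kainate rose in EZH2nHom and fell in WT, while the difference of these responses did not pass after adjustment. EZH2nHom kainate libraries had 13.2, 8.07, 13.9 and 13.5 CPM of Lars2, EZH2nHom saline libraries 9.37, 8.07, 7.2, 8.45 and 8.02. WT kainate libraries had 26.7, 26.3, 31.2, 23.6 and 22.5 CPM, and WT saline libraries 25.2, 43.7, 57.5, 58.4 and 51.4. Every EZH2nHom library lay below every WT library. Within WT, 4 of the 5 saline libraries lay above all kainate libraries, and WT saline replicate 1 lay inside their range. Within EZH2nHom, 3 of the 4 kainate libraries lay above all saline libraries, and replicate 2 was at the saline level, so the groups overlapped, while 19.2% of all genes tested had groups that did not. These levels rested on 195 to 2168 reads of Lars2 per library.

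**Figure D1:**
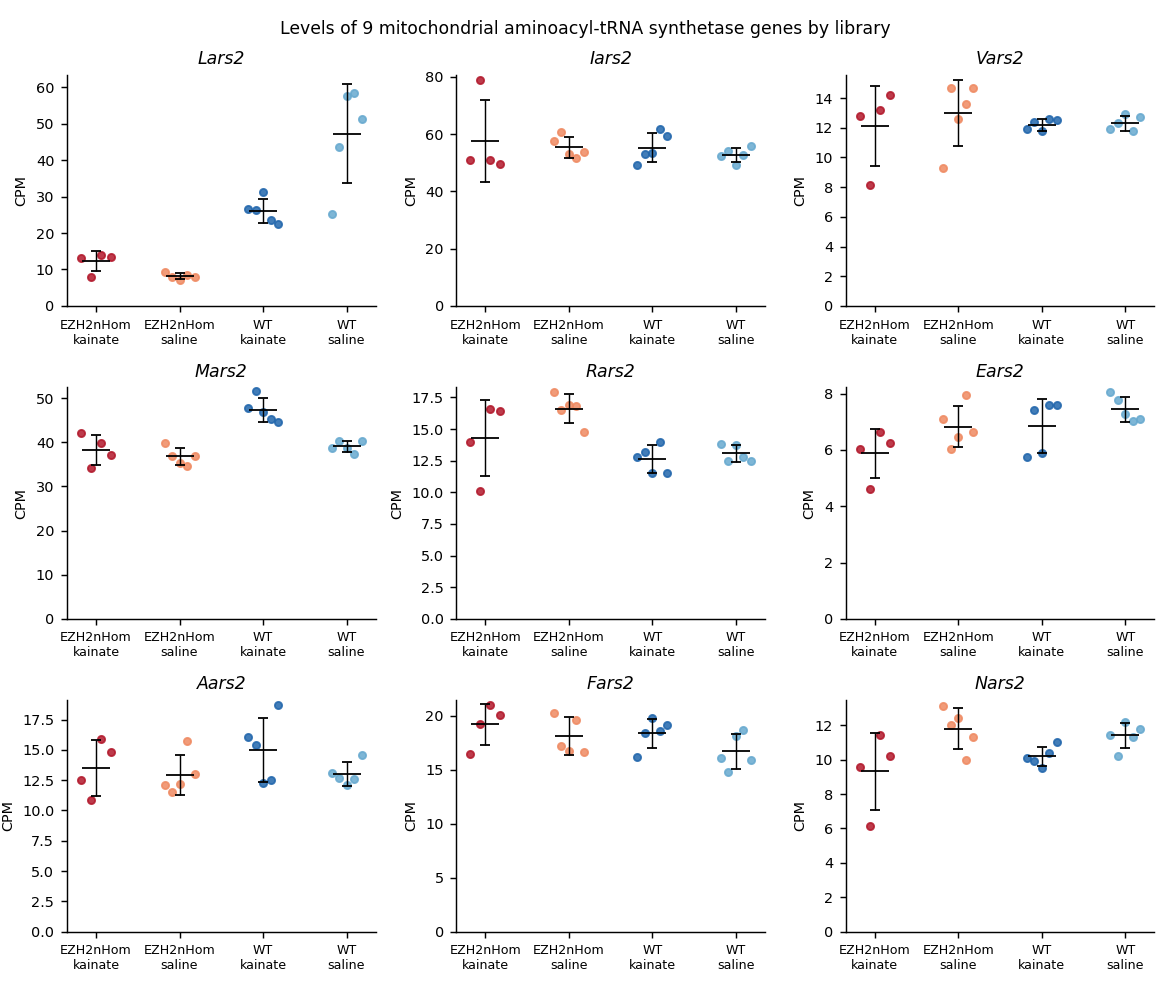
Levels in CPM (y axis, from 0) of the 9 genes in each library, with a point per library, the mean as a bar and the SD as whiskers; groups run EZH2nHom kainate, EZH2nHom saline, WT kainate, WT saline. Lars2 lies at 7.2 to 13.9 CPM in EZH2nHom and 22.5 to 58.4 CPM in WT libraries, whereas the groups of most other members overlap.

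As a description of the contrast that chose it, Lars2 averaged 8.22 ± 0.787 CPM in EZH2nHom saline and 47.2 ± 13.6 in WT saline libraries (SD, n = 5 each), a log2 fold change of -2.52 ± 0.19 (SE), or 5.74-fold lower. After kainate it averaged 12.2 ± 2.74 CPM in EZH2nHom (n = 4) and 26.1 ± 3.37 in WT libraries (n = 5), a log2 fold change of -1.10 ± 0.20, or 2.14-fold lower. For background, 13.5% of genes tested passed the genotype comparison after saline (8.33% higher and 5.16% lower) and 7.61% after kainate (4.56% higher and 3.04% lower). Groups did not overlap for 21.3% of genes after saline and 7.26% after kainate. The other 8 members ranged from -0.12 to 0.34 after saline and from -0.30 to 0.18 after kainate on the same log2 scale. Among them the groups did not overlap for Rars2 after saline (0.34 ± 0.11, higher in EZH2nHom) and for Mars2 after kainate (-0.30 ± 0.07, lower in EZH2nHom).

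Lars2 fell after kainate in WT hippocampus and rose in EZH2nHom hippocampus. In EZH2nHom the log2 fold change of kainate over saline was 0.57 ± 0.20 (edgeR quasi-likelihood test with Benjamini-Hochberg adjustment, adjusted p = 0.0392). In WT it was -0.86 ± 0.18 (edgeR, adjusted p = 0.00394), or 1.81-fold lower. Of all genes tested, 26.1% passed in EZH2nHom (14.3% higher and 11.8% lower) and 12% in WT (9.47% higher and 2.57% lower). The EZH2nHom call was lost when any of EZH2nHom saline replicates 2, 3, 4 or 5 or EZH2nHom kainate replicates 1, 3 or 4 was left out, with log2 fold changes of 0.50 to 0.72 over all single omissions (edgeR, adjusted p of 0.00495 to 0.0979). The WT fall passed without any single library, at -1.03 to -0.79.

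The difference between the kainate responses, EZH2nHom minus WT, was 1.43 ± 0.27 for Lars2 on the log2 scale. Its unadjusted p of 3.67e-05 in the edgeR fit ranked 3 among 19234 genes, and its adjusted p was 0.235, so it did not pass. Neither the p nor the rank of Lars2 in this contrast is independent of its choice. In edgeR 0 genes passed this contrast (1685 had an unadjusted p under 0.05), and DESeq2's Wald test called 12. Lars2 passed under DESeq2 (1.45, adjusted p = 0.00077), without WT saline replicate 1 (1.64, edgeR adjusted p = 0.00313) and without EZH2nHom kainate replicate 2 (1.57, edgeR adjusted p = 0.0334). Over all 28 alternatives the adjusted p of the difference ran from 0.00077 to 0.642.

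Lars2 made up a small share of the summed CPM of the 9 genes in knockout tissue. The share was 4.47 to 7.44% in EZH2nHom kainate, 4.17 to 5.02% in EZH2nHom saline, 10.9 to 15.4% in WT kainate and 13.2 to 26.2% in WT saline libraries. The other 8 genes together stayed between 164 and 184 CPM in all 19 libraries. After saline the sum of the 9 differed between genotypes mainly by the Lars2 reads. The other 8 then averaged 171 ± 4.88 CPM in EZH2nHom and 166 ± 2.92 in WT libraries (SD). After kainate the other 8 averaged 170 ± 4.97 CPM in EZH2nHom and 178 ± 6.76 in WT libraries (SD). Within WT the other 8 were thus higher after kainate, where Lars2 was lower.

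Reads of 2 structural RNAs, Rpph1 (the RNA of RNase P) and Rmrp (the RNA of RNase MRP), took a larger share in EZH2nHom saline than in WT saline libraries. The kainate groups of the genotypes overlapped, and 0 of the 2 RNAs passed between genotypes after kainate. The highest EZH2nHom shares were those of saline replicates 4 (0.674%) and 5 (0.545%) and kainate replicate 4 (0.666%), with the next at 0.204%. These are shares of the 2 RNAs together. Their share of all reads was 0.114 to 0.666% in EZH2nHom kainate, 0.145 to 0.674% in EZH2nHom saline, 0.0405 to 0.166% in WT kainate and 0.0269 to 0.0546% in WT saline libraries. With the log2 share as a covariate, an alternative chosen after seeing the data, Lars2 changed after kainate by 0.58 in EZH2nHom (edgeR adjusted p = 0.039) and by -0.94 in WT (edgeR adjusted p = 0.0311).

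Cell markers also moved with kainate. Astrocyte markers rose for 4 of 6 genes in EZH2nHom and 4 of 6 in WT, and their summed level was 4150 to 7760 CPM in EZH2nHom kainate, 1620 to 1960 in EZH2nHom saline, 3630 to 7030 in WT kainate and 1740 to 1840 in WT saline libraries. Microglial markers rose for 5 of 6 genes in EZH2nHom and 6 of 6 in WT, summing to 588 to 1310 CPM in EZH2nHom kainate, 221 to 255 in EZH2nHom saline, 469 to 1290 in WT kainate and 256 to 289 in WT saline libraries. Neuronal markers fell for 5 of 8 genes in EZH2nHom and 1 of 8 in WT, summing to 3990 to 5560 CPM in EZH2nHom kainate, 5940 to 6590 in EZH2nHom saline, 3960 to 5940 in WT kainate and 5320 to 5800 in WT saline libraries. Oligodendrocyte markers fell for 3 of 6 genes in EZH2nHom and passed for 0 of 6 in WT, summing to 3410 to 5820 CPM in EZH2nHom kainate, 5950 to 9430 in EZH2nHom saline, 4490 to 8200 in WT kainate and 5070 to 7110 in WT saline libraries. Red blood cell markers rose for 0 of 5 genes in EZH2nHom and 5 of 5 in WT, summing to 103 to 434 CPM in EZH2nHom kainate, 158 to 399 in EZH2nHom saline, 552 to 1970 in WT kainate and 258 to 770 in WT saline libraries. These calls are edgeR's at an adjusted p under 0.05. Of all genes tested, 14.3% rose and 11.8% fell in EZH2nHom, and 9.47% rose and 2.57% fell in WT. For the difference of the responses 0 genes of these lists passed. In EZH2nHom a fit to only the groups compared left 3 of 6 astrocyte and 5 of 6 microglial markers that rose. It left 3 of 8 neuronal and 2 of 6 oligodendrocyte markers that fell. The part of cell markers in the Lars2 changes was not tested.

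Iars2, the isoleucyl enzyme and the most abundant member per kilobase, did not change after kainate beyond the test's threshold. It had 50.8, 79, 51 and 49.4 CPM in EZH2nHom kainate, 57.7, 60.7, 52.9, 51.7 and 53.7 in EZH2nHom saline, 49.1, 52.9, 53.3, 61.6 and 59.5 in WT kainate and 52.4, 54.1, 49.1, 52.7 and 55.8 in WT saline libraries. The groups overlapped, and the high value was EZH2nHom kainate replicate 2. Log2 fold changes were 0.06 ± 0.11 in EZH2nHom, or -0.14 without that library, and 0.07 ± 0.11 in WT. Iars2 shares 22.4% of its 32-base words with Rab3gap2 on the opposite strand, and the strand setting of the counting is not given in the sources used here, so its level is uncertain.

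Mars2, the methionyl enzyme, whose mutation causes a spastic ataxia in humans, rose after kainate in WT hippocampus. It had 42.1, 34.3, 39.8 and 37.1 CPM in EZH2nHom kainate libraries, against 39.8, 36.9, 35.4, 34.6 and 37 in EZH2nHom saline. WT kainate libraries had 47.8, 51.6, 47, 45.4 and 44.6 CPM, against 38.7, 40.2, 38.8, 37.4 and 40.3 in WT saline. The WT groups did not overlap (as for 14.4% of all genes tested), and the EZH2nHom groups did. The log2 fold change was 0.06 ± 0.07 in EZH2nHom (edgeR adjusted p = 0.57) and 0.28 ± 0.07 in WT (edgeR adjusted p = 0.0099). The difference of the responses was -0.21 ± 0.10 and did not pass (edgeR, unadjusted p = 0.0393, adjusted p = 0.561). Mars2 was also the steadiest member among replicates, with a pooled within-group SD of 0.08 on the log2 scale, at percentile 1.6 of the genes tested, whereas Lars2 had 0.33 at percentile 57.8.

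Vars2, the valyl enzyme, lay close to 12 CPM in most libraries. It had 12.8, 8.14, 13.2 and 14.2 CPM in EZH2nHom kainate, 9.31, 14.7, 12.6, 13.6 and 14.7 in EZH2nHom saline, 11.8 to 12.6 in WT kainate and 11.8 to 12.9 in WT saline libraries. The spread was wider in EZH2nHom, where single libraries in each treatment fell low, than in WT. Vars2 log2 fold changes after kainate were -0.10 ± 0.14 in EZH2nHom and -0.01 ± 0.13 in WT, and neither passed. Without EZH2nHom kainate replicate 2 the EZH2nHom value of Vars2 was 0.05. Vars2 shares 7.23% of its 32-base words with Gm20483 on the opposite strand, which had no read in any library.

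Rars2, the arginyl enzyme, had 14, 10.1, 16.6 and 16.4 CPM in EZH2nHom kainate and 17.9, 16.5, 16.9, 16.8 and 14.8 in EZH2nHom saline libraries. WT kainate libraries had 12.8, 13.2, 11.5, 14 and 11.5 CPM, and WT saline libraries 13.8, 12.5, 13.7, 12.8 and 12.5. All EZH2nHom saline libraries lay above all WT saline libraries, and the kainate groups of the 2 genotypes overlapped. Its kainate changes of -0.21 ± 0.12 in EZH2nHom and -0.05 ± 0.11 in WT did not pass (edgeR, adjusted p of 0.198 and 0.822).

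Ears2, the glutamyl enzyme, charges the glutamate tRNA and also loads glutamate onto the glutamine tRNA for later amidation. It was among the lowest members, with 6.02, 4.62, 6.62 and 6.24 CPM in EZH2nHom kainate, 6.04 to 7.94 in EZH2nHom saline, 5.76 to 7.61 in WT kainate and 7.03 to 8.05 in WT saline libraries. These groups overlapped, and changes after kainate of -0.22 ± 0.13 in EZH2nHom and -0.12 ± 0.12 in WT did not pass the test.

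Of the class II members, none passed in either genotype. Aars2, the alanyl enzyme, had 12.5, 10.9, 15.9 and 14.8 CPM in EZH2nHom kainate, 11.5 to 15.7 in EZH2nHom saline, 16.1, 15.4, 12.3, 12.5 and 18.7 in WT kainate and 12.1 to 14.6 in WT saline libraries. Fars2, the phenylalanyl enzyme, had 16.5 to 21 CPM in EZH2nHom kainate, 16.6 to 20.3 in EZH2nHom saline, 16.2 to 19.8 in WT kainate and 14.8 to 18.7 in WT saline libraries. For both genes the groups overlapped, with log2 changes after kainate of 0.07 ± 0.14 (Aars2) and 0.09 ± 0.10 (Fars2) in EZH2nHom and 0.20 ± 0.13 (Aars2) and 0.14 ± 0.09 (Fars2) in WT. Without EZH2nHom kainate replicate 3 the EZH2nHom value of Aars2 was -0.02. Fars2 shares 8.11% of its 32-base words with Nrn1 on the opposite strand.

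Nars2, the asparaginyl enzyme, had 9.59, 6.16, 11.4 and 10.2 CPM in EZH2nHom kainate, 13.1, 12, 12.4, 10 and 11.3 in EZH2nHom saline, 9.5 to 11 in WT kainate and 10.2 to 12.2 in WT saline libraries. The groups overlapped within each genotype. Its log2 fold change after kainate was -0.33 ± 0.13 in EZH2nHom (edgeR adjusted p = 0.075) and -0.16 ± 0.13 in WT (edgeR adjusted p = 0.473). Without EZH2nHom kainate replicate 3, Nars2 passed in EZH2nHom at -0.45 (edgeR adjusted p = 0.0242, against 0.0242 to 0.354 over its alternatives). Nars2 shares 3.57% of its words with C230038L03Rik on the opposite strand.

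**Figure D2:**
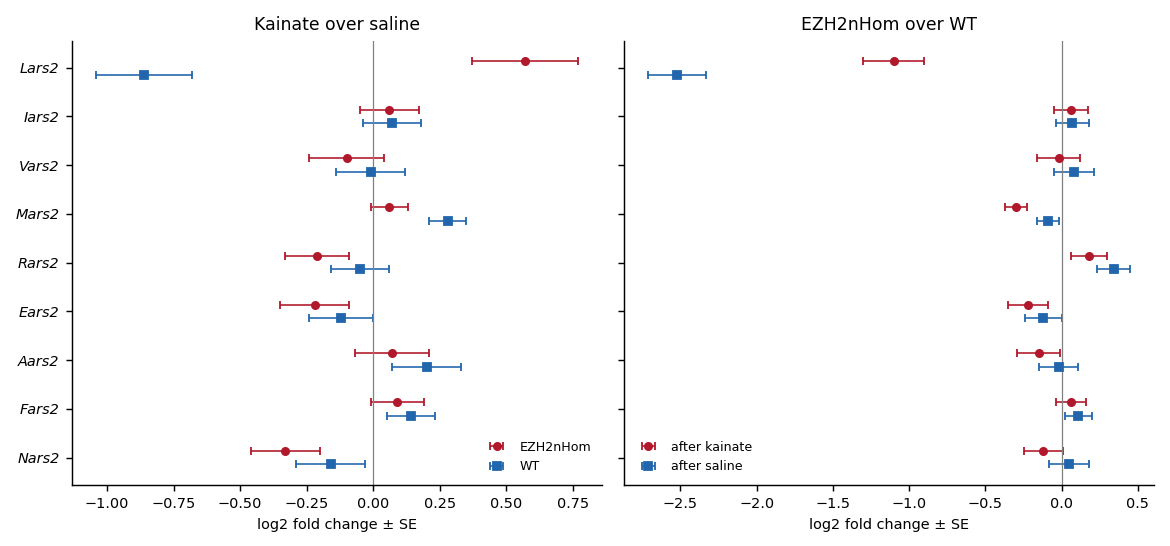
Log2 fold changes ± SE (x axes) of the 9 genes (rows) for kainate over saline in EZH2nHom (circles) and WT (squares), left, and for EZH2nHom over WT after kainate (circles) and after saline (squares), right. Lars2 lies at 0.57 in EZH2nHom and -0.86 in WT on the left, while the other 8 genes lie between -0.33 and 0.28.

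Counted together, 1 of the 9 genes rose and 0 fell after kainate in EZH2nHom, where 14.3% of all genes tested rose and 11.8% fell. In WT 1 of the 9 rose and 1 fell, where 9.47% of all genes rose and 2.57% fell, and these counts are too small to set the 9 apart from that background. The median log2 fold change of the 9 was 0.06 in EZH2nHom and -0.01 in WT, beside -0.02 for all genes tested in each. For the difference of the responses the other 8 members lay between -0.21 and -0.01, below 0 like 52.1% of all genes tested. Under alternatives Aars2, Ears2, Fars2, Iars2 and Vars2 turned positive (the largest being 0.12, for Vars2 with the structural RNA share as a covariate), and none passed. EZH2nHom kainate replicate 2 held the lowest level of 6 of the 9 members over all 19 libraries, and the highest of Iars2.

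Per kilobase of annotated exon (GENCODE M21 on GRCm38), the order of the members changed by the place of Lars2. In EZH2nHom saline libraries Iars2 (6.24 ± 0.42 CPM per kilobase) and Rars2 (5.99 ± 0.408) led without differing beyond their SD. Mars2 (3.26 ± 0.177) and Fars2 (3.15 ± 0.306) followed, then Aars2 (2.71 ± 0.346) and Vars2 (2.38 ± 0.408), and neither of these pairs differed beyond its SD. Nars2 (1.69 ± 0.168) and Ears2 (1.33 ± 0.141) came next, and Lars2 (0.741 ± 0.071) was the lowest. In WT saline libraries Lars2 (4.26 ± 1.23) stood between Rars2 (4.73 ± 0.241) and Mars2 (3.46 ± 0.106), within its own SD of both. After kainate Lars2 had 1.1 ± 0.247 CPM per kilobase in EZH2nHom, within the SD of Ears2 (1.14 ± 0.169), and 2.35 ± 0.304 in WT, within its own SD of Vars2 (2.23 ± 0.0716).

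Mitochondrial ribosomal RNA, the core of the ribosomes that use the charged tRNAs, was examined beside Lars2, together with Gm15564, a transcript annotated inside Lars2. Of the 32-base words of Lars2, 0 occurred in mt-Rnr1 or mt-Rnr2, which encode the small and large mitochondrial ribosomal RNAs, and Gm15564 had at most 4 reads in any library. Since ribosomal RNA was depleted before sequencing, per the labels' protocols, levels of mt-Rnr1 and mt-Rnr2 reflect what depletion left. The mt-Rnr2 share of reads was 3.81 to 4.39% in EZH2nHom kainate, 3.67 to 4.83% in EZH2nHom saline, 4.15 to 6.1% in WT kainate and 5.58 to 6.62% in WT saline libraries. EZH2nHom over WT, mt-Rnr1 changed by -0.55 ± 0.15 after kainate and -0.71 ± 0.14 after saline (edgeR, adjusted p of 0.0307 and 0.00215). The values of mt-Rnr2, -0.25 ± 0.12 and -0.28 ± 0.11, did not pass in the main fit (edgeR, adjusted p of 0.208 and 0.116). After saline mt-Rnr2 passed only in a fit to only the groups compared (-0.30, edgeR adjusted p = 0.0209) and without WT kainate replicate 3 (-0.33, edgeR adjusted p = 0.0444). The mt-Rnr1 call after kainate was lost in a fit to only the groups compared (edgeR adjusted p = 0.204), with the structural RNA share as a covariate (0.0742) and without WT kainate replicate 1, 2 or 5 or EZH2nHom kainate replicate 3 (0.0632 to 0.095), and the call after saline was lost with that covariate (-0.49, 0.19).

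Within groups, libraries with more mt-Rnr2 had less Lars2. Of 15256 genes, 0.964% had an r with Lars2 at or below that of mt-Rnr2, and 8.04% at or below that of mt-Rnr1. Deviations of log2 CPM from the group means correlated at Pearson r = -0.58 and Spearman rho = -0.58 over 19 libraries (permutation test within groups, two-sided, p = 0.00249 and 0.00857, adjusted over 2 relations 0.00498 and 0.0171). Without the 2 libraries farthest from the median of mt-Rnr2, r was -0.56, and it was -0.64 within EZH2nHom and -0.56 within WT libraries. For mt-Rnr1, r was -0.45 and rho -0.57 (permutation test, adjusted p = 0.0211 and 0.0187), with r of -0.51 without the 2 farthest libraries, -0.39 within EZH2nHom and -0.49 within WT. The mt-Rnr1 relation missed the threshold without WT saline replicate 1 (r = -0.41), WT saline replicate 4 (-0.41) or WT kainate replicate 3 (-0.40). All 19 values of both genes share their library's depth and scaling.

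**Figure D3:**
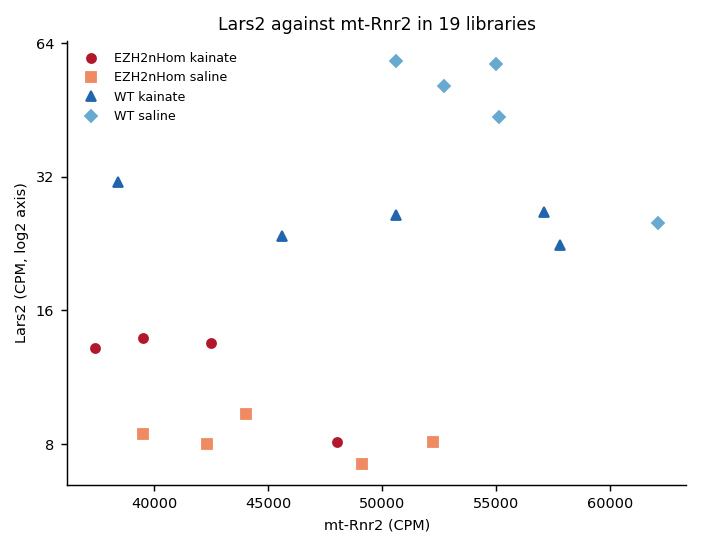
Level of Lars2 (y axis, CPM, log2 scale) against that of mt-Rnr2 (x axis, CPM) in the 19 libraries, with a symbol per group. EZH2nHom libraries lie at 7.2 to 13.9 CPM of Lars2 and WT libraries at 22.5 to 58.4, and within groups the deviations ran in opposite directions (r = -0.58).

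The genes whose deviations within groups were most like those of Lars2, among 15256 genes averaging at least 1 CPM, were Fancb (r = 0.74), Col26a1 (0.73), Zfp672 (0.73), Zfp438 (0.72), 1500002C15Rik (0.72), Zbtb5 (0.71), Lca5 (0.70) and Thap6 (0.68), over 19 libraries. These r values are the highest of many and are given without a test. Genotype differences after saline were between -0.03 and 0.39 on the log2 scale for these 8 genes, against -2.52 for Lars2. Among the members, Nars2 was the most like Lars2 (r = 0.43, rank 1441) and Iars2 the least (r = -0.50, rank 14527).

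The genes next to Lars2 on chromosome 9, 3 on each side in the reference annotation, were examined as well, and 4 of the 6 had enough reads to test. Limd1, a LIM domain protein, rose after kainate in EZH2nHom by 0.60 ± 0.15 (edgeR adjusted p = 0.00553), where 14.3% of all genes tested rose. In WT, Limd1 had 19.6 to 33.6 CPM after kainate and 15.8 to 21.8 after saline. For kainate over saline, 0 of the 4 passed in WT in the main fit and 0 for the difference of the responses. Without EZH2nHom kainate replicate 2, 1 of 5 tested rose in WT, where 12.7% of all genes tested rose. A fit to only the groups compared had 0 of 3 that passed in WT. Sacm1l, a phosphoinositide phosphatase, was higher in EZH2nHom than in WT after saline, by 0.28 ± 0.08 (edgeR adjusted p = 0.0179). None of the 4 was lower in EZH2nHom past the threshold in the main fit, at -0.31 to 0.38 after saline and -1.02 to 0.35 after kainate. In a fit to only the groups compared, 1 of 3 tested was higher and 1 lower after saline. In that fit 16.2% of all genes tested were higher and 15.2% lower.

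The remaining enzymes of mitochondrial tRNA charging were measured in full. After kainate in EZH2nHom 3 of the 13 fell, against 11.8% of all genes tested, namely Wars2, the tryptophanyl enzyme (-0.42 ± 0.14), Yars2, the tyrosyl enzyme (-0.29 ± 0.10), and Gatc (-0.31 ± 0.10), a subunit of the amidotransferase that turns glutamate into glutamine on its tRNA (edgeR, adjusted p of 0.0266, 0.0437 and 0.0347). In WT 0 of the 13 passed, and 0 of the 13 passed for the difference of the responses. In EZH2nHom 2 fell without EZH2nHom kainate replicate 2, and 0 passed in a fit to only the groups compared. Wars2 averaged 5.79 ± 1.3 CPM in EZH2nHom kainate (n = 4) and 7.79 ± 0.644 in EZH2nHom saline libraries (SD, n = 5). Between genotypes after saline, Gatc alone of the 13 passed in the main fit (0.58 ± 0.10, edgeR adjusted p = 0.000577), where 8.33% of all genes tested were higher. It had 16.1 ± 1.07 CPM in EZH2nHom and 10.8 ± 0.581 in WT (SD, n = 5 each). In a fit to only the groups compared 3 of the 13 were higher, against 16.2% of all genes. Without EZH2nHom kainate replicate 2 the count was 2 of the 13, against 13.5%. The substrates themselves were hardly read, since 4 of the 22 mitochondrial tRNA genes had any read and none could be tested.

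The cytosolic synthetases and their scaffold proteins load the tRNAs of the main protein synthesis machinery. EZH2nHom over WT after saline, 9 of 22 were higher and 1 lower, where 8.33% of all genes tested were higher and 5.16% lower. Among those higher were Tars (0.47 ± 0.08), Eprs (0.43 ± 0.07), Rars (0.56 ± 0.10) and Aars (0.43 ± 0.09), which charge threonine, glutamate and proline, arginine and alanine in the cytosol. Vars, the cytosolic valyl enzyme, was lower (-0.45 ± 0.11). With the structural RNA share as a covariate 5 were higher and 2 lower. After kainate 5 of 22 were higher and 0 lower, where 4.56% of all genes were higher, but 1 was higher without EZH2nHom kainate replicate 2 and 0 passed in a fit to only the groups compared. For kainate over saline, 1 of 22 rose and 3 fell in EZH2nHom, where 14.3% of all genes tested rose and 11.8% fell. The counts were 1 and 6 without EZH2nHom kainate replicate 2, and 0 and 0 in a fit to only the groups compared. In WT 0 of the 22 passed, and 0 passed for the difference. In EZH2nHom, Farsb (-0.32 ± 0.08), Iars (-0.26 ± 0.07) and the scaffold protein gene Eef1e1 (-0.29 ± 0.09) fell, and Vars rose (0.42 ± 0.12, all edgeR, adjusted p of 0.00804 to 0.0191). The median difference after saline was 0.24 for the 22 and 0.02 for all genes tested.

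Protein genes of tRNA processing, translation factors and the mitochondrial ribosome were counted between genotypes, where 8.33% of all genes tested were higher in EZH2nHom and 5.16% lower after saline. Of 22 genes of tRNA processing and modification, 4 were higher in EZH2nHom than in WT after saline and 0 lower, including Trnt1, which adds the CCA end of tRNAs (0.42 ± 0.08), and Osgepl1 (0.48 ± 0.10), a tRNA modification enzyme. Of 12 translation factors, 3 were higher and 0 lower, including the elongation factor Gfm1 (0.27 ± 0.07) and the initiation factor Mtif3 (0.34 ± 0.09). Of 79 mitochondrial ribosomal protein genes tested, 24 were higher and 3 lower after saline, with Mrps12 at 0.93 ± 0.13 and Mrpl32 at 0.63 ± 0.10. After kainate 11 of the 79 were higher and 1 lower, where 4.56% of all genes tested were higher and 3.04% lower. With the structural RNA share as a covariate the ribosomal protein counts after saline were 11 higher and 6 lower, and in a fit to only the groups compared 0 passed after kainate. For kainate over saline, 2 ribosomal protein genes rose and 14 fell in EZH2nHom (14.3% and 11.8% of all genes tested), 1 rose and 0 fell in WT (9.47% and 2.57%), and 0 of 79 passed for the difference. A fit to only the groups compared left 1 that rose and 1 that fell in EZH2nHom. Mrps6 rose by 1.07 ± 0.28 in EZH2nHom and 1.10 ± 0.26 in WT (edgeR, adjusted p of 0.00768 and 0.0093). With the structural RNA share as a covariate 0 of 79 passed in WT.

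The 13 messenger RNAs of the mitochondrial genome, whose translation uses the charged tRNAs, moved in both directions. EZH2nHom over WT after saline, 6 were higher and 2 lower, with mt-Nd1 at 1.14 ± 0.13, mt-Cytb at 0.92 ± 0.10 and mt-Atp6 at -1.23 ± 0.14 (edgeR, adjusted p of 1.13e-05, 5.87e-06 and 1.61e-05). The other that was lower was mt-Co2 (-2.96 ± 0.46), a subunit of cytochrome c oxidase. In this comparison 8.33% of all genes tested were higher and 5.16% lower. In EZH2nHom, where 11.8% of all genes tested fell and 14.3% rose, 6 of 13 fell and 0 rose after kainate, including mt-Cytb (-0.60 ± 0.10). In WT, where 9.47% of all genes rose and 2.57% fell, 0 of 13 passed, and 0 of 13 passed for the difference. Without EZH2nHom kainate replicate 2 the count that fell in EZH2nHom was 5, against 15.9% of all genes tested. In a fit to only the groups compared that count was 4, against 5.09%. Their summed share of reads was 2.25 to 3.21% in EZH2nHom kainate, 3.14 to 4.24% in EZH2nHom saline, 2.22 to 2.64% in WT kainate and 2.58 to 2.84% in WT saline libraries.

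Genes of the integrated stress response, which cells induce when mitochondrial translation or amino acid supply fails, were counted too. Of 13 tested, 3 rose and 2 fell after kainate in EZH2nHom, where 14.3% of all genes tested rose and 11.8% fell. In WT 1 of the 13 rose, where 9.47% of all genes rose, and 0 passed for the difference. These counts are too small to set the 13 apart from that background. A fit to only the groups compared left 1 that rose and 0 that fell in EZH2nHom. Psat1, an enzyme of serine synthesis, rose by 0.38 ± 0.12 in EZH2nHom and 0.48 ± 0.11 in WT (edgeR, adjusted p of 0.0234 and 0.00846), while Asns, asparagine synthetase, fell by 0.41 in EZH2nHom (edgeR adjusted p = 0.0365). With the structural RNA share as a covariate 0 of 13 passed in WT. Between genotypes 8.33% of all genes tested were higher in EZH2nHom and 5.16% lower after saline, and 4.56% and 3.04% after kainate. Of the 13, 0 were higher and 1 lower after saline (Atf5, a stress transcription factor, -0.68 ± 0.20). After kainate 1 was higher and 0 lower (Ppp1r15a, a phosphatase subunit that ends the response, 0.99 ± 0.30, edgeR adjusted p = 0.0461), and it was lost in a fit to only the groups compared, where 0 of the 13 passed. Of 13 genes of mitochondrial DNA expression, 0 rose and 2 fell after kainate in EZH2nHom, close to the 11.8% of all genes tested that fell. The 2 included Lrpprc (-0.22 ± 0.06), which stabilises mitochondrial messenger RNA, and 0 of the 13 passed in WT or for the difference. In EZH2nHom 3 fell without EZH2nHom kainate replicate 2 and 0 in a fit to only the groups compared.

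**Figure D4:**
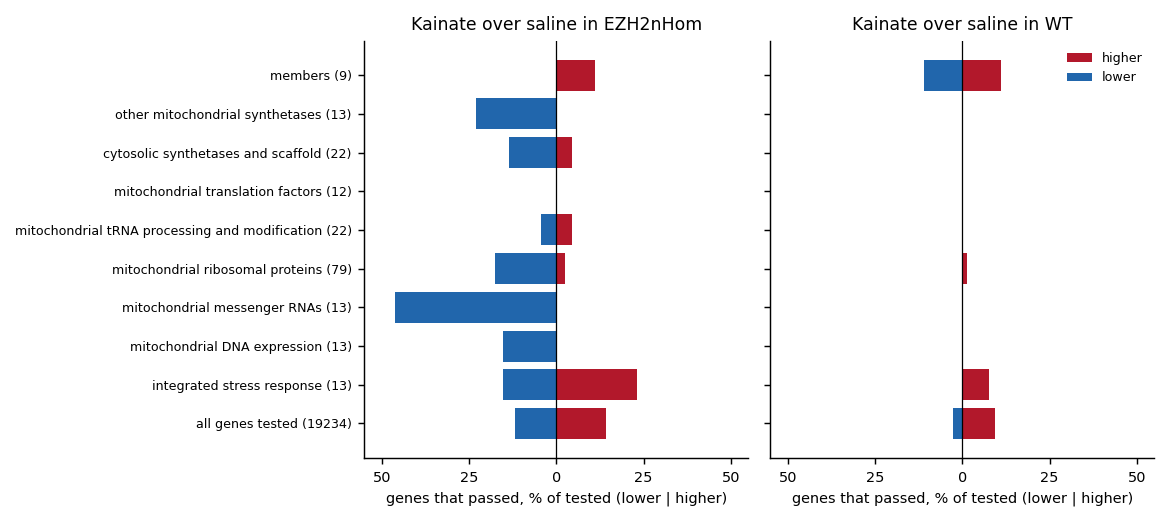
Percent of tested genes in each list (rows, number tested in brackets) that passed for kainate over saline (edgeR, adjusted p under 0.05), with higher genes to the right and lower genes to the left, in EZH2nHom (left panel) and WT (right panel). The row named members holds the 9 genes, of which 1 rose in EZH2nHom and 1 rose and 1 fell in WT, and the bottom row shows all 19234 genes tested.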

How the data were processed

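Per the labels' protocols, libraries were made from total RNA of 19 mouse hippocampus samples after removal of ribosomal RNA, mitochondrial included. The authors deposited whole-number read counts per Ensembl gene, the input of every test. A second deposited table holds normalised signal (counts divided by a size factor per library, by the authors), log2 fold changes, a test score and p-values, and only its gene symbols were used. A further deposited table was not used. The submitters' processing notes name mm39, DESeq2 and DESeq, and the aligner, counter and strand setting are not given in the sources used here. Titles and columns number the EZH2nHom kainate libraries differently, and title numbers are used.

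The tools were edgeR 4.0.16 (with limma 3.58.1), DESeq2 1.42.0 in R 4.3.3, and Python 3.11.15. Genes kept by filterByExpr were scaled by TMM and fitted by edgeR's robust quasi-likelihood model, with a mean for each of 4 groups over all 19 libraries, and tested two-sided in 5 contrasts with Benjamini-Hochberg adjustment over 19234 genes (threshold 0.05). The code was tested on simulated data. Errors are SE for log2 fold changes and SD for levels. Replicates are separate samples in the labels, and p-values measure the spread between these samples. The 9 members and the lists were chosen with earlier results of these data known. Named genes are the 9 members, Ezh2, mt-Rnr1, mt-Rnr2, Gm15564, up to 4 list genes with the smallest p per contrast, and the 8 genes most like Lars2. Outside this rule, mt-Co2 and, between genotypes, Vars were named after their values were seen. Relations used 100000 permutations within groups. Annotation (GENCODE M21, RefSeq GRCm38.p6) gave names, exon lengths, shared words and promoters, and no coordinates were converted from the files' build. Alternatives were the Wald test or size factors of DESeq2, no low-count filter or 1 CPM in 4 libraries, totals without mitochondrial, rRNA and Lars2 rows, a fit to the compared groups alone, a replicate block, a Y-linked covariate, a threshold of 0.01, omission of each library and, chosen after seeing the data, the structural RNA share.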

Additional observations from a re-analysis of the deposited data

Results flagged for a closer look

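Of 36 groups of libraries tested for a value far from the others (9 genes in 4 groups), 2 were flagged, and chance flags about 1 in 20 groups. Both came from EZH2nHom kainate replicate 2, the library that stood apart on the second principal component. Its Lars2 level was 8.07 CPM, below the 13.2 to 13.9 CPM of the other EZH2nHom kainate libraries. Its Iars2 level was 79 CPM, above the 49.4 to 51 CPM of the others. Without that library the kainate change of Lars2 in EZH2nHom was 0.72 (edgeR adjusted p = 0.00495).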

How the results depend on the processing

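Lars2 after kainate in WT (-1.03 to -0.79) and Mars2 after kainate in WT (0.23 to 0.31) kept direction and call under all 29 alternatives each. Of 688 alternative values for the other 8 members in the kainate contrasts and their difference, 653 kept direction and side of the threshold, 1 newly passed (Nars2) and 34 turned sign, none of them past the threshold. For the difference, Iars2 (-0.01) was 0.02 with DESeq2 size factors, the DESeq2 Wald test or at least 1 CPM in 4 libraries, 0.01 with no filter and 0.03 with the Y-linked covariate. With the structural RNA share Vars2 was 0.12, Ears2 0.09, Aars2 0.06 and Fars2 0.03. Leaving out each library gave, for the difference, -0.20 to 0.09 (Iars2), -0.19 to 0.05 (Vars2) and -0.10 to 0.05 (Fars2), in EZH2nHom -0.14 to 0.14 (Iars2), -0.20 to 0.05 (Vars2) and -0.02 to 0.16 (Aars2), and in WT -0.04 to 0.00 (Vars2). Of 504 genotype values of the 9 members 500 moved by less than the spread between replicates. The remaining 4 were 1 value each of Aars2, Ears2 and Vars2 after saline and of Iars2 after kainate. Under alternatives other than omissions, the saline values reached -0.32 for Aars2 (main fit -0.02), -0.41 for Ears2 (-0.12) and -0.27 for Vars2 (0.08). Iars2 after kainate was -0.13 without EZH2nHom kainate replicate 2 (main fit 0.06). The members rest on 126 to 2236 reads per library, which limits small changes of the lowest, Ears2.

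The counts of genes past the threshold changed as follows, and the cause was not tested. At a threshold of 0.01 they were 2815 in EZH2nHom after kainate, 1083 in WT after kainate, 284 between genotypes after kainate and 1212 after saline, by construction. With the structural RNA share as a covariate they were 553 in WT after kainate and 1658 between genotypes after saline. A fit to only the groups compared gave 3066 in EZH2nHom after kainate, 4 between genotypes after kainate (against 1463) and 5604 after saline (against 2596). DESeq2's Wald test gave 12 for the difference of responses and 2214 between genotypes after kainate, where no filter gave 959. Leaving out each library gave 3868 to 6097 in EZH2nHom after kainate, 1365 to 3414 in WT after kainate, 0 to 4 for the difference, 670 to 2193 between genotypes after kainate and 1675 to 4296 after saline. The relation of Lars2 with mt-Rnr1 ran from -0.54 to -0.40 and with mt-Rnr2 from -0.64 to -0.51.

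Deviations of same-numbered libraries correlated at -0.0546 to 0.0895 in EZH2nHom, 0.0767 to 0.309 in WT, -0.0862 to 0.407 across genotypes after kainate and 0.0266 to 0.354 after saline, so the numbers were not taken to pair them. With the replicate block 5023 genes passed in EZH2nHom, 2477 in WT, 0 for the difference, 1191 between genotypes after kainate and 2809 after saline, and Lars2 in EZH2nHom was 0.54 (edgeR adjusted p = 0.0639). Of the libraries, 2 of 4 in EZH2nHom and 3 of 5 in WT matched best with their own number.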
